A study of Medicago truncatula with 4 samples.

Results

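Genes for histones and for the enzymes and other proteins that act on histones, DNA methylation or chromatin were followed in calli of *Medicago truncatula*, a model legume. Members were all genes whose deposited description contains the word histone, demethylase, polycomb or chromatin, or the phrase DNA methyltransferase, in any case. This rule found 124 genes among the 52709 genes of the count table, of which 3784 carry a description. They comprise 15 genes of core and linker histones and 109 genes of enzymes and other chromatin proteins. The word histone found 69 of them, polycomb 50, chromatin 4 and demethylase 3, with overlaps, and the phrase DNA methyltransferase found 0.

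DNA in the nucleus is wound around octamers of the core histones, and linker histone H1 binds the DNA between them. Enzymes add or remove acetyl and methyl groups on histone tails, and Polycomb complexes use histone H3 methylation to keep developmental genes silent, while other methyltransferases mark heterochromatin and, in plants, guide DNA methylation. Cells that regenerate embryos in culture, a process called somatic embryogenesis, change cell identity without changing their DNA sequence, which is why these genes are of interest in callus.

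Leaf explant calli of the R108 line, an embryogenic line of *M. truncatula*, were compared by sequencing of polyA RNA, with 2 biological replicates in each of 2 groups. Calli with *MtWOX9-1* overexpression came from R108 plants with a transgenic insertion from the pMDC32 plasmid, in which a constitutive viral promoter drives the coding sequence of *MtWOX9-1*, a WUSCHEL-related homeobox gene, and wildtype calli came from R108 plants without it. All donor plants were 35 days old, and all calli were kept for 30 days with the auxin 2,4-D (18 μM) and the cytokinin BAP (2.22 μM) and for 5 more days without either hormone. The question addressed is which of these genes had another expression level when *MtWOX9-1* was overexpressed. Neither the labels nor the methods used here say whether the replicates came from separate transgenic lines, plants or cultures, so the p-values below measure the spread between these libraries, which may in part be technical.

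Library totals lay between 6399209 and 6666866 counts in calli with *MtWOX9-1* overexpression and between 5241334 and 6065277 counts in wildtype calli. *MtWOX9-1* itself (MtrunA17Chr2g0283141) had 7692 and 7634 counts in calli with its overexpression, against 2 and 18 counts in wildtype calli, which fits the labels of all 4 libraries. These reads do not separate the introduced copy from the native gene. No marker defines callus cells, but lists of markers of other cell kinds differed between the groups. All 10 genes described as root cap genes were higher in calli with *MtWOX9-1* overexpression, with summed levels of 8967.1 and 13681.7 normalized counts, against 32.3 and 189 in wildtype calli. Of the 3 tested genes of embryo and seed maturation, 2 were higher and 1 was lower, their summed levels being 54.6 and 101 normalized counts with overexpression and 284 and 238 in wildtype calli. Of the 12 tested genes of stem cell and embryo identity (plethora and WUSCHEL-related genes, *MtWOX9-1* among them) 7 were higher and 4 lower, and photosynthesis keywords found 0 genes. Of all genes tested 20.2% were higher and 18.9% lower. A gene needed 10 counts in total to be tested. *MtRC1*, *MtRC4*, *MtWOX11* and both higher maturation genes, *MtPM25* and *MtLEA4-5*, reached this through the overexpressing calli alone, and *MtWUS* through the wildtype calli alone. In such bulk samples a change in the share of a cell type and a change in RNA per cell cannot be told apart, and the part of the root cap signal in the values below was not tested.

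Levels below are normalized counts, that is, counts scaled with TMM factors to the mean effective library size. They are not divided by gene length, so they are compared between libraries and not between genes. Log2 fold changes are of *MtWOX9-1*-overexpressing over wildtype calli, with their standard error (SE) and a p-value of the edgeR quasi-likelihood test, adjusted after Benjamini and Hochberg over all 24630 genes with at least 10 counts in total. Genes with an adjusted p under 0.05 are called higher or lower.

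Of the 124 members, 100 were tested, 19 had 0 counts in all 4 libraries and 5 had fewer than 10 counts in total. In calli with *MtWOX9-1* overexpression 43 of the 100 were higher, or 43%, where 20.2% of all genes tested were higher. Of the 43, *ATXR6-1*, *MtVRN1.4* and *MtVRN1.18* reached the minimum count through the overexpressing calli alone, and without the 6 tested members of which this holds 40 of 94 were higher. Only 4 members, *MtSWN*, *MtFIE.20*, *MtFIE.2* and *MtH1.1*, were lower, or 4%, where 18.9% of all genes were lower. Among the 1634 tested genes with any other description, 28.3% were higher and 28.3% were lower. The median log2 fold change was 0.46 over the tested members and 0.04 over all genes tested. Both overexpressing libraries were above both wildtype libraries for 70 members (39.3% of all genes tested) and below them for 11 (35.8% of all genes tested). Of the 53 members that did not pass the test, 41 had a 95% confidence interval within 1 log2 unit of no change.

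The count of higher members depended on the settings and on the libraries used. The same held for all genes, of which 4985 were higher here and 3331 with DESeq2. For the members the count was 32 with DESeq2, 26 with the replicate number as a block and 37 with a minimum of 1 count. It was 44 with the size factors of DESeq2, 46 with filterByExpr and 51 with library size as the only scaling. It was 20 without replicate 1 of *MtWOX9-1* overexpression, 27 without replicate 1 of the wildtype, and 35 without each of the other libraries in turn. Members called under all 10 alternative settings numbered 22 of the 47, and they are named as such below.

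**Figure D1:**
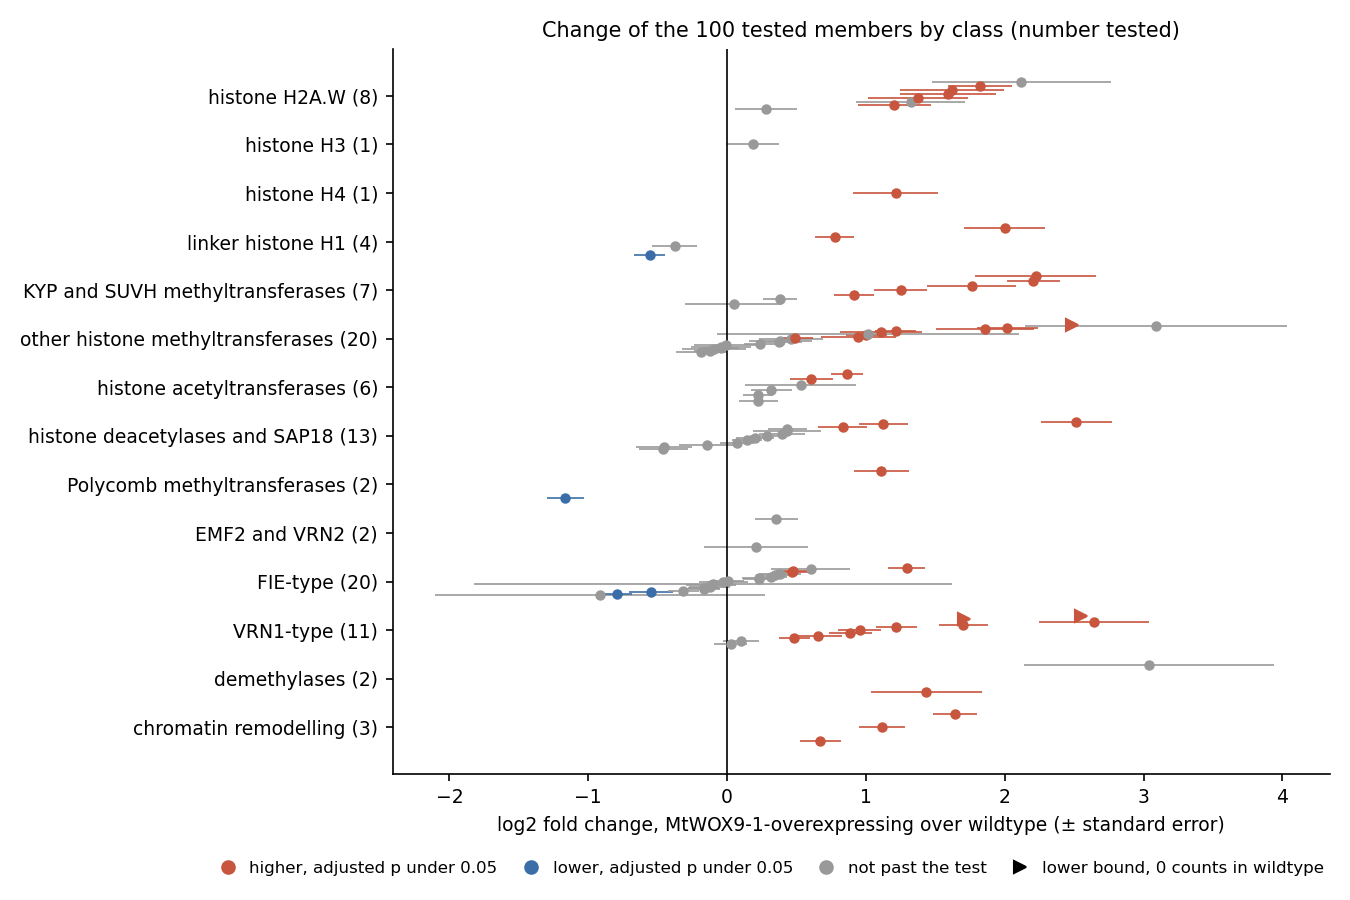
Log2 fold change of calli with *MtWOX9-1* overexpression over wildtype calli (x axis) for the 100 tested members by class (y axis, number tested in parentheses). Points are genes with their standard error, and triangles mark the 3 tested genes without a single wildtype count, drawn at their lower bound. Points of H2A.W, KYP and SUVH, VRN1-type and remodelling genes lie mostly right of 0, the FIE-type genes lie around it, and 4 genes of 3 classes are coloured as lower.

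Histones H2A, H3 and H4 are part of the core particle, and the variant H2A.W is known from *Arabidopsis thaliana* as the H2A form of heterochromatin. The 8 genes described as H2A.W had a positive log2 fold change throughout, with a median of 1.48, and 5 of them passed the test as higher (0 were lower, at an unadjusted p under 0.05 or with DESeq2 also 0). These 5 are 62.5%, where 20.2% of all genes tested were higher. *MtH2A.W-8* reached the minimum count through the overexpressing calli alone, so its sign was favoured by the filter. Of the other 7 genes 5 were higher. Their summed level was 1572 and 1076.2 normalized counts in calli with *MtWOX9-1* overexpression, against 660 and 835 in wildtype calli.

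*MtH2A.W-2* (MtrunA17Chr2g0327951) had 269 and 217 normalized counts with *MtWOX9-1* overexpression and 56 and 81.8 in wildtype calli. Both overexpressing libraries were well above both wildtype libraries, and its log2 fold change was 1.82 (SE 0.23, adjusted p = 0.00586). It is the only H2A.W gene called under all 10 alternative settings. *MtH2A.W-3* (MtrunA17Chr4g0031001) had 145 and 83.3 normalized counts with overexpression, against 35.5 and 53 in wildtype calli. The groups did not overlap, although replicate 1 of the overexpressing calli was far above replicate 2 (log2 fold change 1.38, SE 0.36, adjusted p = 0.0371). *MtH2A.W-5* (MtrunA17Chr4g0031651) showed the same order of libraries, with 71.3 and 49.8 normalized counts with overexpression and 15.1 and 25.3 in wildtype calli. Its log2 fold change was 1.59 (SE 0.35, adjusted p = 0.0224).

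*MtH2A.W-6* (MtrunA17Chr4g0032301) had 118 and 68.8 normalized counts with *MtWOX9-1* overexpression, against 23.7 and 37.3 in wildtype calli. Again both overexpressing libraries were higher, with a log2 fold change of 1.62 (SE 0.38, adjusted p = 0.0266). *MtH2A.W-7* (MtrunA17Chr4g0035621) had 202 and 141 normalized counts with overexpression and 62.4 and 86.7 in wildtype calli. The groups were apart here too, with a log2 fold change of 1.21 (SE 0.26, adjusted p = 0.022).

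The other 3 H2A.W genes did not pass the test. *MtH2A.W-4* (MtrunA17Chr4g0031041) had 47.6 and 29.9 normalized counts with overexpression, against 11.8 and 19.3 in wildtype calli (log2 fold change 1.32, SE 0.39, adjusted p = 0.0521). The groups did not overlap, and the adjusted p lay just above the threshold. *MtH2A.W-8* (MtrunA17Chr8g0379311) was counted 6 times in each overexpressing library and 1 time in each wildtype library, a ratio of 4.71 with an exact 95% interval from 1.05 to 43.4 for counting error. *MtH2A.W-1* (MtrunA17Chr2g0327931) had 714 and 481 normalized counts with overexpression and 454 and 531 in wildtype calli. Its groups overlapped, and its log2 fold change of 0.28 had a 95% confidence interval from -0.29 to 0.85 (adjusted p = 0.367).

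*MtH4* (MtrunA17Chr5g0425951), the only gene described as histone H4, had 102 and 61.5 normalized counts in calli with *MtWOX9-1* overexpression, against 34.5 and 36.1 in wildtype calli. Both overexpressing libraries were higher, and the wildtype libraries were nearly equal (log2 fold change 1.21, SE 0.31, adjusted p = 0.0339).

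Except for that of *MtH2A.W-2*, the H2A.W and H4 calls were lost without replicate 1 of either group. Without replicate 1 of *MtWOX9-1* overexpression 1 of the 8 H2A.W genes was called higher, without replicate 1 of the wildtype again 1, and without replicate 2 of either group 5 and 6. *MtH4* lost its call without replicate 1 of *MtWOX9-1* overexpression and without either wildtype library, and its log2 fold change ranged from 0.80 to 1.53 without single libraries. With all 4 libraries, DESeq2 called neither *MtH4* nor *MtH2A.W-5*, and a minimum of 1 count in place of 10 lost the calls of *MtH4* and *MtH2A.W-3*. With the replicate number as a block 1 of the 8 H2A.W genes was called higher, and *MtH4* was not called. These genes also moved together within each group. In the 8 H2A.W and H4 genes with at least 10 counts in each library, replicate 1 over replicate 2 had a median ratio of 1.54 with overexpression (1.24 to 1.75) and of 0.677 in wildtype calli (0.596 to 0.954). All 8 were thus higher in replicate 1 than in replicate 2 with overexpression and lower in replicate 1 than in replicate 2 of the wildtype, an order shared by 26.3% of all 17560 genes at that depth. Their spread within a group was not independent from gene to gene.

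**Figure D2:**
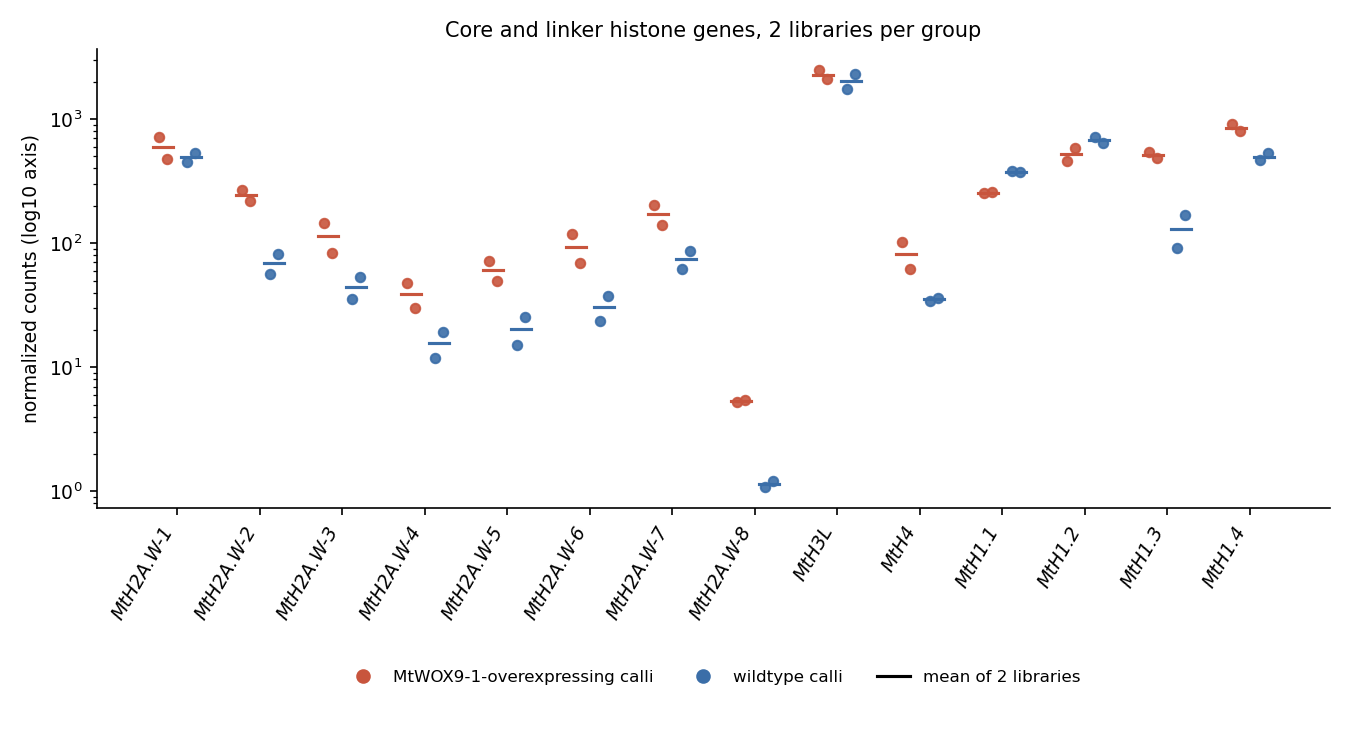
Normalized counts (y axis, log10 scale) of the 14 tested histone genes (x axis) in each library, with calli with *MtWOX9-1* overexpression left of wildtype calli for each gene, replicate 1 left of replicate 2, and lines at the mean of the 2 libraries. For 6 of the 8 H2A.W genes and for *MtH4* the overexpressing libraries lie above the wildtype ones with replicate 1 on top in the overexpressing group, while *MtH3L* overlaps and *MtH1.1* and *MtH1.2* lie below.

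*MtH3L* (MtrunA17Chr4g0054151), the only gene described as histone H3, is the reference gene of the qPCR measurements in this work. It had 2477.4 and 2088.1 normalized counts in calli with *MtWOX9-1* overexpression and 1735.6 and 2285.5 in wildtype calli. The groups overlapped, and the log2 fold change was 0.18 (SE 0.19, adjusted p = 0.481). Its 95% confidence interval ran from -0.30 to 0.67 log2 units. The qPCR primers of this gene, the only member used as a reference, are shown as designed, 5′ to 3′ and 24 and 20 bases long, with no part in capitals.
MtH3L forward primer: ctttgcttggtgctgtttagatgg
MtH3L reverse primer: attccaaaggcggctgcata

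Linker histone H1 binds where DNA enters and leaves the core particle and compacts chromatin. The 5 H1 genes did not move as a class, since 2 of the 4 tested were higher and 1 was lower in calli with *MtWOX9-1* overexpression. Over all genes tested 20.2% were higher and 18.9% lower. *MtH1.3* (MtrunA17Chr1g0190561) had 543 and 486 normalized counts with overexpression, against 91.5 and 167 in wildtype calli. It was higher in both overexpressing libraries and kept its call under all 10 settings (log2 fold change 2.00, SE 0.29, adjusted p = 0.00797). *MtH1.4* (MtrunA17Chr7g0260771) had 910 and 794 normalized counts with overexpression and 464 and 532 in wildtype calli. It was higher to a smaller degree, by 0.77 log2 units (SE 0.14, adjusted p = 0.0134), and lost its call without replicate 1 of either group.

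*MtH1.1* (MtrunA17Chr1g0184561) had 252 and 258 normalized counts with *MtWOX9-1* overexpression, against 379 and 372 in wildtype calli. The replicates were close and the groups apart, and its level fell by 0.56 on the log2 scale (SE 0.11, adjusted p = 0.0167), a call lost when any library was left out. *MtH1.2* (MtrunA17Chr1g0184661) had 462 and 587 normalized counts with overexpression and 721 and 643 in wildtype calli. Both overexpressing libraries were below the wildtype, but the log2 fold change of -0.38 did not pass the test (SE 0.16, adjusted p = 0.125). *MtH1.5* (MtrunA17Chr8g0372961) had 0 counts in every library, which allows up to 0.45 to 0.572 counts in 1000000 at a limit of 3 counts.

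The names of the histone genes carry a limit. The annotation gives each gene an identifier and an older identifier, and for 6 of the 15 histones the chromosome in the older identifier is another one, which holds for 6 of the 122 members with an older identifier and thus for none outside the histones. Among the H1 genes both columns hold the same set of chromosomes in another order. Values here belong to the newer identifier, and which numbered gene of a histone class it is remains uncertain. Histone genes of a class can also be similar in sequence, which was not examined here, and how reads matching several copies were counted is not given in the sources used here.

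Of the methyltransferases of heterochromatin, KYP, also called SUVH4, is known from *A. thaliana* as the enzyme that places the histone H3 methylation read by the DNA methyltransferase CMT3. Of the 8 KYP and SUVH genes 7 were tested and 5 were higher in calli with *MtWOX9-1* overexpression, with a median log2 fold change of 1.25. These 5 make up 71.4% of the 7, where 20.2% of all genes tested were higher. *MtKYP* (MtrunA17Chr7g0252211) had 1129.9 and 862 normalized counts with overexpression, against 197 and 235 in wildtype calli. The overexpressing libraries were several times above the wildtype ones, a 4.62-fold difference (log2 fold change 2.21, SE 0.19, adjusted p = 0.00318) that held under all 10 settings. *KYP/SUVH4 -3* (MtrunA17Chr6g0476121) had 83.7 and 64.3 normalized counts with overexpression and 16.1 and 27.7 in wildtype calli. It was higher in both overexpressing libraries (log2 fold change 1.76, SE 0.32, adjusted p = 0.0138) but not past the test without replicate 1 of *MtWOX9-1* overexpression.

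*SUVH3-2* (MtrunA17Chr7g0255181), a homologue of a protein that in *A. thaliana* binds methylated DNA, had 1940.1 and 1523.3 normalized counts with *MtWOX9-1* overexpression, against 645 and 810 in wildtype calli. The groups lay apart, with a log2 fold change of 1.25 (SE 0.19, adjusted p = 0.00901), and the call held under all 10 settings. *SUVH3-1* and *KYP/SUVH4 -4* were the other higher genes, by 0.92 and 2.22 log2 units with adjusted p-values of 0.00949 and 0.017, and the call of *SUVH3-1* held under all 10 settings. That of *KYP/SUVH4 -4* was lost without replicate 1 of *MtWOX9-1* overexpression and with the replicate number as a block. The log2 fold change of *KYP/SUVH4 -4* ranged from 1.70 to 2.97 without single libraries, and was 2.97 without replicate 2 of the wildtype. This gene had 67 and 48 counts with overexpression, against 6 and 13 in wildtype calli. *SUVH6-1* and *SUVH6-2* did not pass the test, with log2 fold changes of 0.38 and 0.05, and *KYP/SUVH4 -2* had 0 counts throughout. All 6 genes of this class with at least 10 counts in each library had the same order of replicates as the H2A.W genes, with replicate 1 above replicate 2 with overexpression and below it in the wildtype. Without replicate 1 of *MtWOX9-1* overexpression 3 genes of the class were called higher.

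Of the 20 tested genes of other histone methyltransferases 8 were higher and 0 were lower in calli with *MtWOX9-1* overexpression. The 8 make up 40%, where 20.2% of all genes tested were higher and 18.9% lower. DESeq2 called 4 of the 20 higher and 0 lower. At an unadjusted p under 0.05 the test still found 0 lower. Of the 20, 2 reached 10 counts through the overexpressing calli alone, of which *ATXR6-1* was called higher, and 7 of the other 18 were higher. Without single libraries the count of higher genes was between 4 and 6, with 4 without replicate 1 of *MtWOX9-1* overexpression and 5 without replicate 1 of the wildtype or replicate 2 of the overexpressing calli. SUVR5 is known from *A. thaliana* as a zinc finger protein that deposits a repressive histone mark. *SUVR5-like 1* (MtrunA17Chr5g0403241) had 1242.6 and 1257.2 normalized counts with overexpression, against 481 and 597 in wildtype calli. The overexpressing libraries were about equal and above the wildtype (log2 fold change 1.21, SE 0.15, adjusted p = 0.00549), and the call held under all 10 settings, whereas *SUVR5-like 2* showed a log2 fold change of -0.01 with overlapping groups. *ATX4-like 2* (MtrunA17Chr3g0126701), of the trithorax type that marks active genes, had 281 and 250 normalized counts with overexpression and 122 and 143 in wildtype calli. It was higher by 1.00 log2 units (SE 0.15, adjusted p = 0.00822) under all 10 settings, while *ATX4-like 1* had a log2 fold change of -0.12 with a 95% confidence interval from -0.43 to 0.19.

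ATXR5 and ATXR6 are known from *A. thaliana* as enzymes that add a single methyl group to histone H3 and restrain extra replication of heterochromatin. The 3 genes of this type were few in counts and were chosen for mention after their values were seen. *ATXR6-1* (MtrunA17Chr1g0146731) had 25 and 18 counts with *MtWOX9-1* overexpression and 0 and 0 in wildtype calli, which makes it at least 5.6-fold higher against 3 counts per wildtype library (adjusted p = 0.00948). *ATXR6-2* (MtrunA17Chr1g0146761) had 72 and 68 counts with overexpression, against 15 and 12 in wildtype calli. Both *ATXR6* genes were higher under all 10 settings, and the log2 fold change of *ATXR6-2* was 2.02 (SE 0.22, adjusted p = 0.00446). *ATXR5-like* (MtrunA17Chr3g0129881) had 51 and 33 counts with overexpression and 9 and 9 in wildtype calli (log2 fold change 1.86, SE 0.35, adjusted p = 0.0154), a call lost without replicate 1 of either group and with DESeq2. The remaining genes past the test were *ATX3-like 1*, *ATXR4-like* and *SUVR4-like 1*, at log2 fold changes of 1.11, 0.95 and 0.49 (adjusted p = 0.0383, 0.0453 and 0.0353), and all 3 calls were lost with DESeq2 and when any library was left out, with an adjusted p of up to 0.312, 0.32 and 0.117 over the alternatives.

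The Polycomb complex that methylates histone H3 holds a catalytic subunit, which in plants is CURLY LEAF (CLF), SWINGER (SWN) or MEDEA (MEA), together with the WD40 protein FIE and a zinc finger protein such as EMF2 or VRN2. The expression levels of the 2 detected genes for catalytic subunits differed in opposite directions. *MtCLF* (MtrunA17Chr5g0401921) had 424 and 342 normalized counts in calli with *MtWOX9-1* overexpression, against 153 and 202 in wildtype calli. Both overexpressing libraries were above the wildtype, with a log2 fold change of 1.11 (SE 0.20, adjusted p = 0.0129). *MtSWN* (MtrunA17Chr1g0194631) had 350 and 405 normalized counts with overexpression and 889 and 803 in wildtype calli. Here both overexpressing libraries were below the wildtype, and the level fell by 1.16 on the log2 scale (SE 0.13, adjusted p = 0.00494). Both calls held under all 10 settings, and their sum was 773 and 748 normalized counts with overexpression and 1042.2 and 1005 in wildtype calli. *MtMEA.1* and *MtMEA.2* had 0 counts in every library.

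The zinc finger subunits did not pass the test. *MtVRN2* (MtrunA17Chr5g0399611) had 617 and 637 normalized counts with *MtWOX9-1* overexpression, against 431 and 552 in wildtype calli (log2 fold change 0.35, SE 0.15, adjusted p = 0.134). The groups did not overlap, but replicate 2 of the wildtype was nearer to the overexpressing libraries than to replicate 1. *MtEMF2* had a log2 fold change of 0.21 with overlapping groups.

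The annotation lists 20 genes as FIE, and all 20 were tested. The median over these genes was a log2 fold change of -0.01, and 3 of them (15%) were higher and 2 (10%) lower, below the shares of all genes tested. *MtFIE.14* (MtrunA17Chr4g0035611), the FIE-type gene with the most counts, had 2065.2 and 2051 normalized counts with *MtWOX9-1* overexpression, against 2065 and 2023.2 in wildtype calli. The 4 libraries were nearly equal (log2 fold change 0.01, 95% confidence interval from -0.29 to 0.31). *MtFIE.19* (MtrunA17Chr6g0448921) had 344 and 300 normalized counts with overexpression and 131 and 131 in wildtype calli. This gene was higher in both overexpressing libraries, by 1.29 log2 units (SE 0.13, adjusted p = 0.0041), under all 10 settings. *MtFIE.20* (MtrunA17Chr7g0237271) was lower, with 382 and 372 normalized counts with overexpression, against 673 and 633 in wildtype calli, and fell by 0.79 on the log2 scale (SE 0.11, adjusted p = 0.00713), also under all 10 settings. The calls of *MtFIE.4* and *MtFIE.15* (higher, by 0.48 and 0.47) and of *MtFIE.2* (lower, log2 fold change -0.55) were lost when any library was left out, and DESeq2 did not call *MtFIE.15* and *MtFIE.2*. *A. thaliana* is known to have a single *FIE* gene, and which of the 20 genes encodes the subunit is not given in the sources used here.

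VRN1 is a plant DNA-binding protein that in *A. thaliana* is needed for lasting silencing of a flowering repressor after cold, and the annotation places 24 genes under this name and the Polycomb label. Of these, 11 were tested, 11 had 0 counts in every library and 2 had fewer than 10 counts. In the 11 tested genes 9 were higher and 0 were lower in calli with *MtWOX9-1* overexpression, also at an unadjusted p under 0.05. The share of higher genes was 81.8%, against 20.2% of all genes tested. DESeq2 called 8 higher and 0 lower. A pair of the 9, *MtVRN1.4* and *MtVRN1.18*, reached the minimum of 10 counts through the overexpressing calli alone and could be tested only because they are high there, and of the other 9 tested genes 7 were higher. The median log2 fold change of the 11 was 0.95. *MtVRN1.19* (MtrunA17Chr4g0033961) had 324 and 236 normalized counts with overexpression, against 26.9 and 63.8 in wildtype calli. It had the largest difference among the VRN1-type genes detected in wildtype calli, at 2.64 log2 units (SE 0.40, adjusted p = 0.00865), and this value was 2.13 without replicate 1 of the wildtype and 3.38 without replicate 2 of the wildtype. *MtVRN1.10* (MtrunA17Chr1g0154211) had 186 and 156 normalized counts with overexpression and 48.4 and 56.6 in wildtype calli. The groups lay far apart (log2 fold change 1.70, SE 0.18, adjusted p = 0.00418). *MtVRN1.11* (MtrunA17Chr1g0154251) had 742 and 640 normalized counts with overexpression, against 271 and 323 in wildtype calli, and was higher by 1.22 log2 units (SE 0.15, adjusted p = 0.00561). The calls of these 3 genes held under all 10 settings.

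*MtVRN1.4* and *MtVRN1.18*, chosen for mention after their values were seen, had no wildtype count. *MtVRN1.18* had 29 and 16 counts with *MtWOX9-1* overexpression and 0 and 0 in wildtype calli, at least 5.85-fold higher against 3 counts per wildtype library (adjusted p = 0.0128, called under all 10 settings). *MtVRN1.4* had 13 and 12 counts with overexpression and 0 and 0 in wildtype calli, at least 3.26-fold higher (adjusted p = 0.0139). Its call was lost without replicate 1 of *MtWOX9-1* overexpression and with the replicate number as a block. Neighbouring identifiers were read together. Of the 8 genes whose identifiers run from MtrunA17Chr1g0154041 to MtrunA17Chr1g0154251 on chromosome 1, 7 were tested and 6 were higher, whereas of the 5 VRN1-type genes on chromosome 7, 4 had 0 counts and none was tested. The 6 include *MtVRN1.4*, which could be tested only through the overexpressing calli. Of the 6, only *MtVRN1.10* and *MtVRN1.11* kept their calls under all 10 settings. Of all genes tested 20.2% were higher. *MtVRN1.7*, which lies within the chromosome 1 run, had a log2 fold change of 0.03 with a 95% confidence interval from -0.28 to 0.33. Without replicate 1 of *MtWOX9-1* overexpression 4 of the VRN1-type genes were higher, and without replicate 1 of the wildtype 6.

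**Figure D3:**
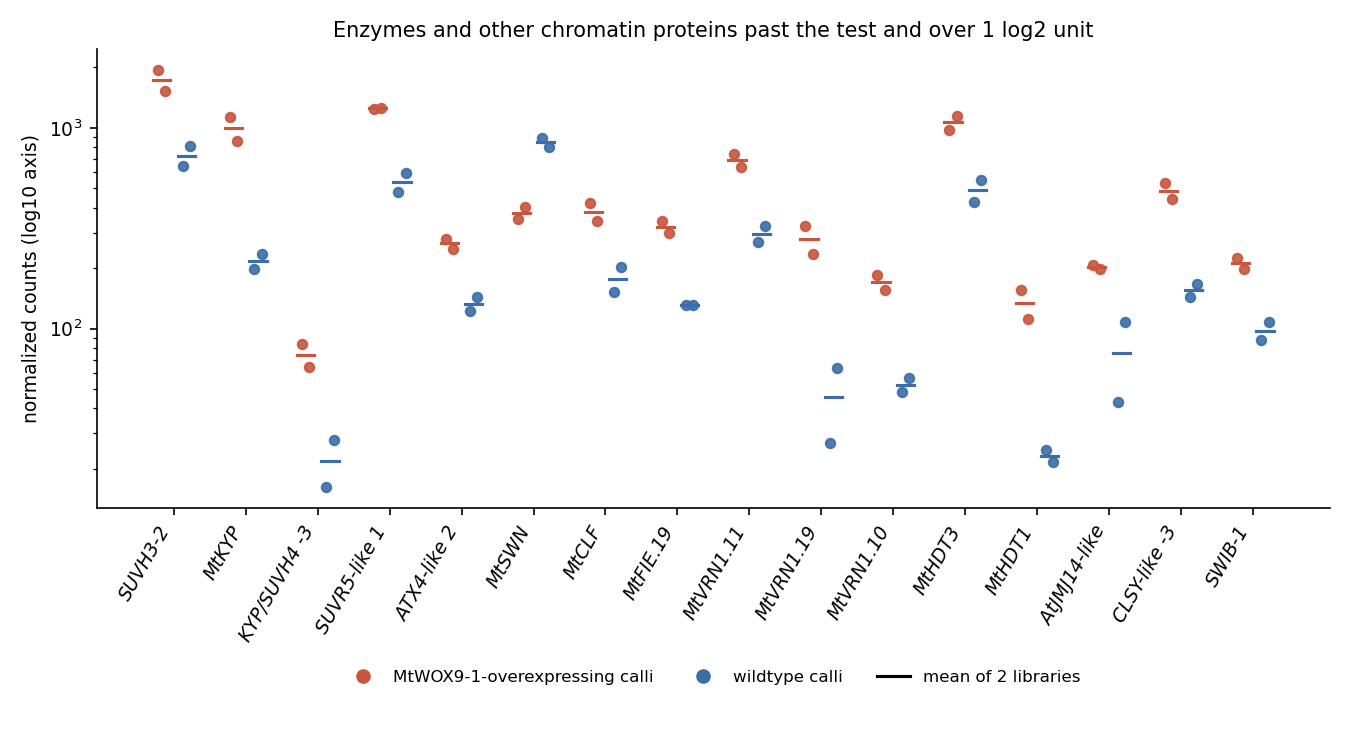
Normalized counts (y axis, log10 scale) of the 16 named genes of enzymes and other chromatin proteins past the test with an absolute log2 fold change over 1 (x axis), ordered by class, with calli with *MtWOX9-1* overexpression left of wildtype calli, replicate 1 left of replicate 2, and lines at the mean of the 2 libraries. The groups do not overlap in any of these genes, which were picked for their difference, and only *MtSWN* is lower with overexpression.

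Acetyltransferases open chromatin by acetylating histone tails, and deacetylases reverse this. Of the 6 tested acetyltransferase genes 2 were higher and 0 lower in calli with *MtWOX9-1* overexpression, with a median log2 fold change of 0.42. At an unadjusted p under 0.05 also 0 were lower, and DESeq2 called 1 higher and 0 lower. As a share 33.3% were higher, close to the 28.3% of tested genes with any other description. Of all genes tested 20.2% were higher. *HAC1-like 5* (MtrunA17Chr4g0000031), the gene of this class with the most counts, had 1644.2 and 1932.4 normalized counts with overexpression, against 1466.4 and 1595.9 in wildtype calli. The groups just failed to overlap, and the log2 fold change was 0.22 (SE 0.14, adjusted p = 0.262). The 2 higher genes were *IDM1/ROS4-like*, a homologue of an acetyltransferase that in *A. thaliana* counters DNA methylation, at a log2 fold change of 0.86 (SE 0.11, adjusted p = 0.00633), and *HAC1-like 2* at 0.61 (adjusted p = 0.0336). Only the call of *IDM1/ROS4-like* held under all 10 settings, and that of *HAC1-like 2* was lost with DESeq2 and when any library was left out.

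Of the 13 deacetylase genes, counted with *SAP18-like* of a deacetylase complex, 3 were higher, or 23.1%, which is close to the 20.2% of all genes tested, and 0 were lower. At an unadjusted p under 0.05 there were 4 higher and 1 lower, and with DESeq2 2 and 0. The HDT proteins are a deacetylase type found in plants. *MtHDT1* (MtrunA17Chr4g0027191) had 156 and 111 normalized counts in calli with *MtWOX9-1* overexpression, against 24.8 and 21.7 in wildtype calli. The wildtype libraries were close together and far below the overexpressing ones, a 5.72-fold difference (log2 fold change 2.52, SE 0.26, adjusted p = 0.00403). Its neighbour by identifier, *MtHDT3* (MtrunA17Chr4g0027181), had 978 and 1150.4 normalized counts with overexpression and 426 and 550 in wildtype calli. It was higher as well, by 1.13 log2 units (SE 0.18, adjusted p = 0.00954). The protein named in its description belongs to LOC11434564 in the RefSeq annotation of MtrunA17r5.0-ANR, at chr4:28238200-28242017. Calls of both genes held under all 10 settings, while *MtHDT3b* had a log2 fold change of -0.15 with overlapping groups.

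The other 10 genes of the class had log2 fold changes between -0.46 and 0.83, and of these *HDAC-like 9* was higher (SE 0.17, adjusted p = 0.0202), a call lost with DESeq2, without replicate 1 of either group and without replicate 2 of *MtWOX9-1* overexpression.

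Of the demethylases, JMJ14 is known from *A. thaliana* as a histone demethylase that removes a mark of active genes. *AtJMJ14-like* (MtrunA17Chr2g0303101) had 207 and 199 normalized counts in calli with *MtWOX9-1* overexpression, against 43.1 and 108 in wildtype calli. Overexpressing libraries were close together, wildtype libraries were far apart, and the log2 fold change was 1.44 (SE 0.40, adjusted p = 0.0439). This call was lost without either overexpressing library, with a minimum of 1 count and with the replicate number as a block. The log2 fold change was 0.90 without replicate 1 of the wildtype and 2.24 without replicate 2 of the wildtype. *MtDME* (MtrunA17Chr1g0198151), a homologue of the DNA demethylase DEMETER, had 14 and 19 counts with overexpression and 3 and 0 in wildtype calli. The ratio of 8.64 had an exact 95% interval from 2.71 to 44 for counting error, and the gene did not pass the test (adjusted p = 0.0513). *AtIBM1-like*, a homologue of a histone demethylase, was counted 5 times in replicate 2 of the wildtype and 0 times elsewhere.

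CLASSY proteins are SNF2-type remodellers that in *A. thaliana* direct small RNA production for DNA methylation, and SWIB domains occur in subunits of remodelling complexes. *CLSY-like -3* (MtrunA17Chr5g0437621) had 529 and 440 normalized counts with *MtWOX9-1* overexpression, against 143 and 167 in wildtype calli. It was higher in both overexpressing libraries, by 1.64 log2 units (SE 0.16, adjusted p = 0.00372). *SWIB-1* (MtrunA17Chr5g0402651) had 224 and 199 normalized counts with overexpression and 87.2 and 108 in wildtype calli. Its groups lay apart too (log2 fold change 1.11, SE 0.16, adjusted p = 0.00825), and both calls held under all 10 settings. *SWIB-2* was higher by 0.67 (adjusted p = 0.0232), a call lost with DESeq2 and when any library was left out, and *CLSY-like -2* had 0 counts.

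Other genes of these pathways were taken by keyword from the same descriptions. Calls in these lists were not followed through the 10 alternative settings. The annotation names DNA methyltransferases as cytosine-5 methyltransferases, which the phrase of the rule does not match, so this list of 10 genes was added after values were seen. All 10 had a positive log2 fold change, with a median of 1.18, and 7 were higher in calli with *MtWOX9-1* overexpression. The 7 make up 70%, where 20.2% of all genes tested were higher. *MtCMT3*, of the chromomethylase type that reads the mark placed by KYP, had 743 and 621 counts with overexpression and 111 and 109 in wildtype calli. The groups were far apart, with overexpression above the wildtype (log2 fold change 2.28, SE 0.14, adjusted p = 0.00257). *MtDRM2L1*, a relative of the enzyme of RNA-directed DNA methylation, had 249 and 190 counts with overexpression, against 6 and 11 in wildtype calli, and *MtDRM2L2* had 165 and 148 counts with overexpression, against 14 and 13. Their log2 fold changes were 4.32 (SE 0.32) and 3.18 (SE 0.19), whereas *MtDRM2* itself showed 0.41 and did not pass the test (adjusted p = 0.0811). *MtMET1*, of the type that maintains methylation after replication, had 557 and 508 counts with overexpression, against 209 and 210 in wildtype calli (log2 fold change 0.99, SE 0.12, adjusted p = 0.00579).

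Core histones are made mainly while DNA is replicated, so genes of DNA replication were set beside them. Of the 7 tested genes 6 were higher and 0 lower, at an unadjusted p under 0.05 as well, in calli with *MtWOX9-1* overexpression, with a median log2 fold change of 1.09. Among them *MCM2-like 2*, of the replication helicase, had 634 and 520 counts with overexpression, against 159 and 145 in wildtype calli (log2 fold change 1.57, SE 0.14, adjusted p = 0.00325). Of the 36 tested cyclin and related genes 18 were higher and 6 lower, or 50% and 16.7%. Of all genes tested 20.2% were higher and 18.9% lower, so the share of lower cyclin genes was close to that of all genes. Of the 18, *MtCycA3-6* and *MtCycD5-1* reached 10 counts through the overexpressing calli alone. Within the groups the replication genes with at least 10 counts in each library had replicate 1 over replicate 2 at a median ratio of 1.21 with overexpression and of 0.923 in wildtype calli. The part of cell division in the histone values was not tested.

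**Figure D4:**
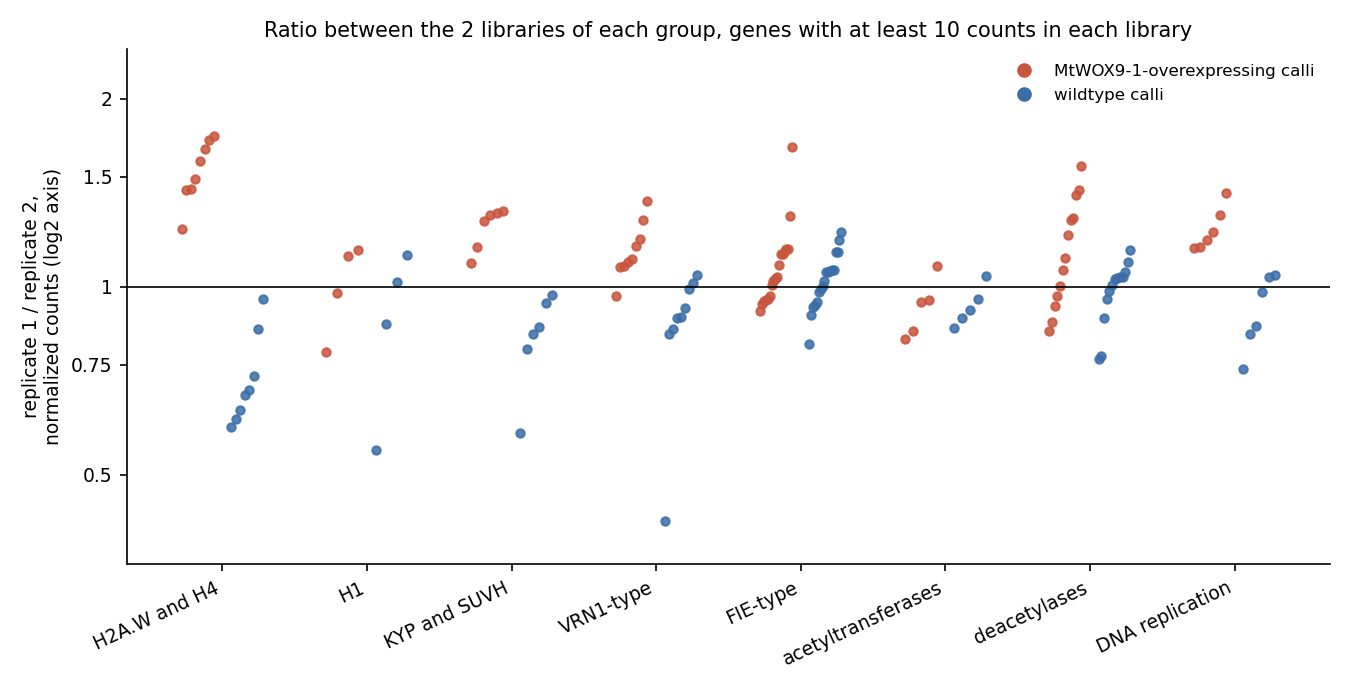
Ratio of replicate 1 to replicate 2 within each group (y axis, normalized counts, log2 scale) for genes with at least 10 counts in each library, by class (x axis), with calli with *MtWOX9-1* overexpression left of wildtype calli. Each point is a gene, and the line marks equal replicates. The H2A.W and H4 genes lie between 1.24 and 1.75 with overexpression and between 0.596 and 0.954 in wildtype calli, while FIE-type genes lie on both sides of 1 in both groups.

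**Figure D5:**
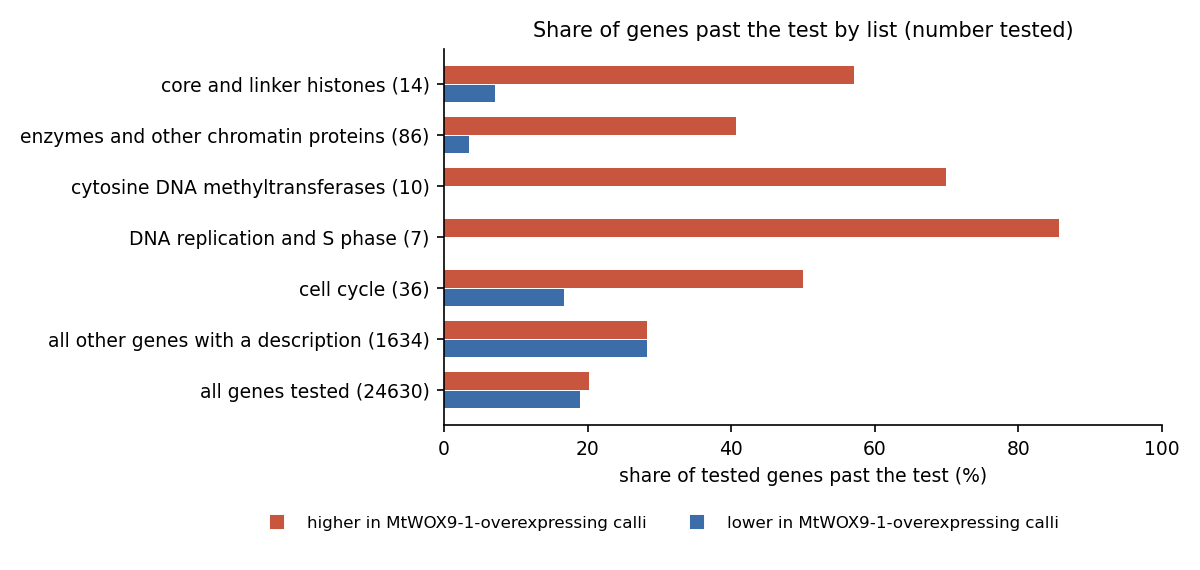
Share of tested genes past the test (x axis, percent) by gene list (y axis, number tested in parentheses), with genes higher in calli with *MtWOX9-1* overexpression above genes lower in them. Histones reach 57.1% higher and 7.14% lower, and enzymes and other chromatin proteins 40.7% and 3.49%, beside 20.2% and 18.9% of all genes tested. The 14 histones are 8 H2A.W genes, 4 H1 genes, 1 H3 gene and 1 H4 gene. With the replicate number as a block 3 histones were higher in place of 8. The list of cytosine DNA methyltransferases was formed after values were seen.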

How the data were processed

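PolyA RNA was sequenced from 2 replicates of calli with *MtWOX9-1* overexpression and 2 of wildtype calli. Unnormalized counts of reads per gene, in whole numbers, were deposited by the authors on identifiers of MtrunA17r5.0-ANR. The submitters' processing notes name Trimmomatic, HISAT2, StringTie and DESeq, and the handling of strand and of multiply mapped reads is not given in the sources used here. The authors' other table has a scaled signal for each library, which was not used here, and their own fold changes and p-values, which were also not used. Its names and descriptions were used. Of the per-sample columns, 0 belonged to other samples.

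Counts were tested in R 4.3.3 with edgeR 4.0.16 (quasi-likelihood test, TMM scaling, condition alone, genes with at least 10 counts in total, two-sided, Benjamini-Hochberg threshold 0.05). SEs were derived from the test statistic. Alternatives were DESeq2 1.42.0, its size factors in edgeR, library size only, a minimum of 1 count, filterByExpr, the replicate number as a block and each library left out. Replicates differed beyond sampling noise, with chi-square values over their degrees of freedom of 7.71 with overexpression and 6.8 in wildtype calli. With 2 against 2 libraries an exact permutation test of a single value cannot go below p = 0.333, so none was used. Intervals for counts and limits for a count of 0 (3 counts) cover counting error only. The fits were also run on simulated counts, in which all changed genes had a change of the same size. That run does not show how well smaller changes are called.

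Members and lists were chosen with earlier results of these data known. Values in every library are given for each tested histone, each other member past the test with an absolute log2 fold change over 1 and the most counted member of each class. Since 40 members qualified and the limit was 30, the 30 with the highest mean level and all tested histones were kept, 33 in all. Members named beyond these were chosen after their values were seen. List keywords were matched without regard to case, except ABI3 and LEC as whole words, and cycling DOF factors were left out of the cyclins. No genome, promoter or protein sequence was used.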

Additional observations from a re-analysis of the deposited data

How the results depend on the processing

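Leaving out 1 library each moved the count of members higher in calli with *MtWOX9-1* overexpression between 20 and 35 (43 with all libraries) and of members lower between 2 and 2 (4 with all). Histones called higher ranged between 2 and 8 (8 with all) and lower between 0 and 0 (1 with all), and enzymes and other chromatin proteins called higher between 18 and 27 (35 with all). Over all genes the count higher ranged between 2696 and 4465 (4985 with all) and the count lower between 2935 and 3858 (4660 with all). DESeq2 called 3101 genes lower. A lone library left in a group is assumed to vary like the other group. The cause was not tested.

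Libraries were not paired by replicate number, since the labels do not say what the number stands for. The deviations of same-numbered libraries from their group means had a correlation of -0.026 over 24630 genes. This value over all genes cannot exclude a pairing that acts on a part of the genes. With the replicate number as a block 26 members, 3 histones and 23 enzymes and other chromatin proteins were higher. Among the calls lost with the block were also those of *MtFIE.2*, *MtFIE.4*, *MtFIE.15*, *ATX3-like 1*, *ATXR4-like*, *SUVR4-like 1*, *HAC1-like 2* and *SWIB-2*.

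Of 327 values of named members under an alternative, 287 kept direction and side of the threshold, 31 were no longer past it, 5 became so and 4 changed sign, all of genes not past the test. Without single libraries *MtH2A.W-1* ranged from -0.03 (without replicate 1 of overexpression) to 0.53, *MtFIE.14* from -0.0018 (without replicate 2 of the wildtype) to 0.02, and *MtH3L* from -0.0032 (without replicate 1 of the wildtype) to 0.40, and *MtFIE.14* was at -0.0032 under filterByExpr. Library size as the only scaling moved the median of all genes by 0.14 log2 units.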

Other observations

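Dicer-like genes, whose products cut the small RNAs that guide DNA methylation and silencing, were not alike. *MtDCL2a* had 442 and 335 counts in calli with *MtWOX9-1* overexpression, against 96 and 84 in wildtype calli, and was higher (log2 fold change 1.76, SE 0.17, edgeR adjusted p = 0.00376). *MtDCL3* and *MtDCL4* were higher by 0.74 and 0.86 log2 units (adjusted p = 0.0139 and 0.00588). *MtDCL2c* was lower, with 165 and 135 counts with overexpression, against 226 and 165 in wildtype calli (log2 fold change -0.72, adjusted p = 0.0268). *MtDCL1*, the Dicer of microRNAs, had 702 and 693 counts with overexpression and 599 and 500 in wildtype calli, with a 95% confidence interval of the log2 fold change from -0.28 to 0.28.

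Cyclins of different types also moved in different directions. *MtCycB1-1*, a mitotic cyclin, had 354 and 235 counts with overexpression, against 60 and 86 in wildtype calli (log2 fold change 1.65, SE 0.30, adjusted p = 0.0143), and *MtCycA1-1* had 869 and 807 counts with overexpression, against 1405 and 1071 in wildtype calli (log2 fold change -0.91, SE 0.13, adjusted p = 0.00846).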
